A study of Mus musculus with 6 samples.

Results

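The genes described here are 9 markers of smooth muscle, Acta2, Actg2, Myh11, Cnn1, Tagln, Smtn, Lmod1, Des and Hspb6, taken by the gene name that the array files give to each non-control probe. They have 14 probes among the 41174 probes of the array, 5 for Acta2, 2 for Tagln and 1 for each of the other 7 genes. The study measured RNA of the mouse esophagus on 6 two-colour expression arrays, 3 labelled Pax9 knockout and 3 labelled wild type. The knockout mice carried K5Cre and Pax9 loxp/loxp, so that Cre is driven by the keratin 5 promoter, which is active in the basal cells of stratified epithelia. The controls were WT mice, and both groups were adult and of the C57BL/6J background. Cy5 marked the esophagus sample of an array, and Cy3 a commercial mouse reference RNA made from cell lines, which all arrays shared. Replicates of a group are called biological replicates in the labels, but no label ties a sample to an animal. The p-values set each difference against the spread among these samples, and whether it is a spread between animals cannot be told.

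Smooth muscle shortens when myosin pulls on actin filaments, a process set off by calcium and by phosphorylation of the myosin light chain. Its genes are switched on by serum response factor and its partner myocardin, which act through a promoter element called the CArG box. In the mouse esophagus the outer muscle coat is largely striated, and smooth muscle is known from the muscularis mucosae and the walls of blood vessels. Acta2 and Tagln are also made by pericytes and myofibroblasts, and Des and Hspb6 also by striated muscle.

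Levels are given as log2 of Cy5 over Cy3 after normalization, and every difference is the mean of the knockout-labelled arrays minus the mean of the wild type-labelled arrays. Pax9 itself read 6.81, 6.78 and 6.72 on the arrays labelled knockout, against 6.28, 6.13 and 5.70 on those labelled wild type, so the targeted gene was not lower where the labels call it deleted (difference 0.73, adjusted p = 0.071 in limma). Where its probe lies relative to the floxed part is not given in the labels, so groups are named here by their labels and every direction rests on them. All arrays labelled knockout shared slide 2 and scan 2, and all those labelled wild type slide 1 and scan 1, so slide and genotype cannot be told apart. The source label names esophageal epithelium, whereas the extraction protocol speaks of esophageal tissue. All 9 smooth muscle genes had a probe well above background in Cy5 on all 6 arrays, as did all 31 skeletal muscle genes examined, so the RNA held muscle transcripts in both groups. The number of arrays limits the precision, and no exact permutation test of 3 against 3 arrays can go below p = 0.1.

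No smooth muscle gene passed the test between the groups. Of the 14 probes, 13 were tested, those whose Cy5 signal stood well above background on each of the 3 arrays of a group, and 0 of 13 passed an adjusted p of 0.05 (limma with Benjamini-Hochberg adjustment over 30505 tested probes). Over all tested probes 4.18% passed. At an unadjusted p under 0.05 there was 1 member probe, that of Hspb6, where 23.3% of all tested probes reached that level. With the replicate number as a block, 1 of 13 member probes passed, again Hspb6 (adjusted p = 0.014), beside 7.39% of all tested probes. The values of the groups overlapped for all 13 probes, and 30.5% of all tested probes had groups that did not overlap. The difference lay above 0 for 11 of the 13 and below 0 for 2, against 49.7% above 0 over all tested probes. Over the brightest probe of each gene the median difference was 0.23, beside 0.01 over all 20820 tested genes. That median rested on single arrays and on the scaling. It was 0.06, 0.59 and 0.10 without knockout replicates 1, 2 and 3, and 0.01, 0.36 and 0.58 without wild type replicates 1, 2 and 3. It was 0.69 with median centring and 0.13 in the deposited log ratio. In such bulk samples a difference in the number of smooth muscle cells and a difference in their RNA per cell cannot be told apart.

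The spread within groups was wide for these genes. The larger of the within-group ranges exceeded the difference between the groups for all 13 member probes, as it did for 78.9% of all tested probes. The median of that range was 1.67 on the log2 scale over the member probes, beside 0.57 over all tested probes, and the median moderated SE of the difference was 0.51 beside 0.20. Wild type replicate 1 gave the lowest log2 ratio for 8 of the 13 probes. Knockout replicate 2 gave the lowest for 4 of them and the highest for 5 others. Leaving out knockout replicate 2 left 0 of 13 probes past the threshold (lowest adjusted p = 0.23).

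**Figure D1:**
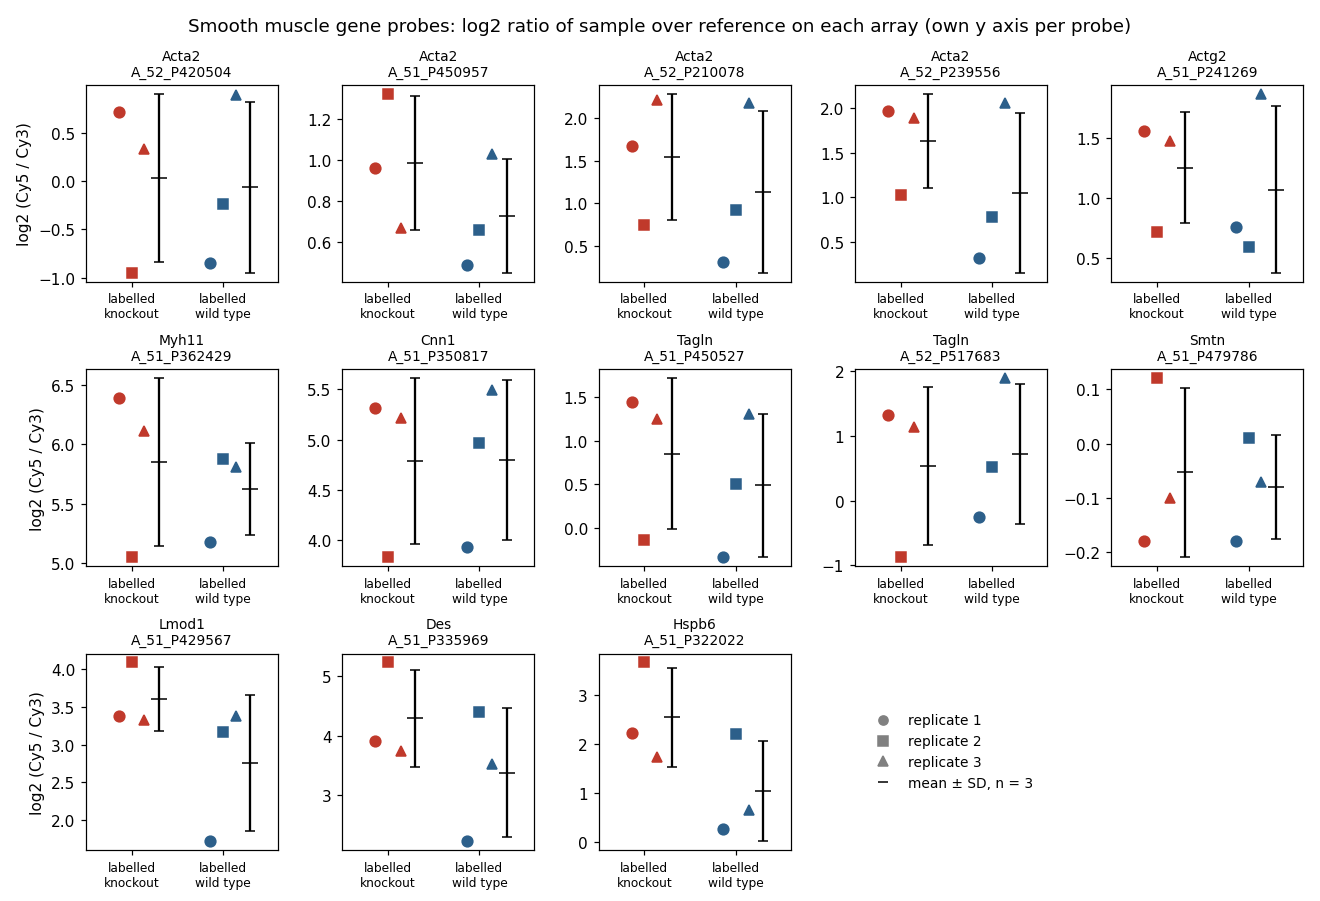
Log2 ratio of Cy5 over Cy3 for each of the 13 tested probes on every array, with the 3 arrays labelled knockout left of the 3 labelled wild type, marker shape for the replicate number, and mean ± SD (n = 3) in black. The groups overlap in every panel, and the y axis differs between panels.

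The sequences of a probe each of Acta2, Des and Hspb6 are shown. These 3 probes were chosen because they were highest on knockout replicate 2 and cross an intron. Each spans more genome than its own length and so crosses an intron. They run 5′ to 3′ in lower case, as read from the array files, with positions on build mm9. The Acta2 probe A_51_P450957 lies at chr19:34322995-34326249 on the minus strand, the Des probe at chr1:75363404-75363629 on the plus strand and the Hspb6 probe at chr7:31339385-31339528 on the plus strand. The probes of Actg2 and Myh11 also span more genome than their 60 bases, but were not highest on that array. Those of Lmod1 and Smtn were highest on it, but span no more genome than their length.
Acta2: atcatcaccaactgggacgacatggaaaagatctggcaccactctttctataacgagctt
Des: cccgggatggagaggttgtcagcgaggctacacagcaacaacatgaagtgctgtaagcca
Hspb6: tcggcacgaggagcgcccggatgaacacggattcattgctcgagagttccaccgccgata

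Acta2 encodes the vascular-type smooth muscle actin of the thin filament. Its brightest probe, A_52_P420504 (chr19:34316060-34316119, minus strand), was spotted 10 times on each array and read 0.71, -0.95 and 0.33 on knockout replicates 1, 2 and 3, against -0.85, -0.24 and 0.89 on wild type replicates 1, 2 and 3. Knockout replicate 2 was the lowest array and wild type replicate 3 the highest, and the groups overlapped over almost their whole range. The means were 0.03 ± 0.87 on the arrays labelled knockout and -0.07 ± 0.88 on those labelled wild type (SD, n = 3 each), a difference of 0.10 (95% interval -1.20 to 1.40, adjusted p = 0.93 in limma). The background-subtracted Cy5 signal was 83763, 35794 and 89598 in the knockout group, against 16119, 24994 and 121621 in the wild type group, where the brightest array was 7.55 times the dimmest. This signal was not scaled between arrays. The median Cy5 over all probes was 158.8 on wild type replicate 3 and 55.95 on wild type replicate 1.

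The Acta2 probes A_52_P210078 and A_52_P239556 were, like the brightest probe, lower on knockout replicate 2 than on the other knockout arrays. The probe A_52_P210078 read 1.67, 0.75 and 2.20 on the arrays labelled knockout, against 0.32, 0.92 and 2.17 on those labelled wild type. The probe A_52_P239556 read 1.97, 1.02 and 1.89, against 0.32, 0.78 and 2.05. In both, knockout replicate 2 was the lowest of its group and wild type replicate 3 the highest of its group. Their differences were 0.40 (SE 0.53, adjusted p = 0.69) and 0.58 (SE 0.47, adjusted p = 0.49). The probe A_52_P644232 was not well above background on any array and was not tested.

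The intron-spanning Acta2 probe shown above gave another order. It read 0.96, 1.32 and 0.67 on the arrays labelled knockout, against 0.49, 0.66 and 1.03 on those labelled wild type, so that knockout replicate 2, the lowest of its group with the other 3 tested Acta2 probes, was here the highest of all 6 arrays. Its difference was 0.26 (SE 0.22, 95% interval -0.27 to 0.78, adjusted p = 0.53). Acta1, the skeletal muscle actin, read 5.05, 6.24 and 4.64 in the knockout group, against 3.27, 5.93 and 3.26 in the wild type group, and Actc1, the cardiac actin, 1.67, 2.48 and 1.57 against 0.11, 1.53 and 1.68. Both striated muscle actins were highest on knockout replicate 2. Actg1, another actin gene, was lowest of all 6 arrays there with both its probes (-0.35 and -0.36). The probes of Actb, a further actin gene, differed. On knockout replicate 2, A_51_P173760 was lowest of its group (0.65) and A_51_P251154 highest of all 6 arrays (0.73). Acta1 was low on wild type replicates 1 and 3, and Actc1 on wild type replicate 1 alone. Whether RNA of other actins bound to the intron-spanning Acta2 probe was not tested, since no transcript sequences were used here.

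**Figure D2:**
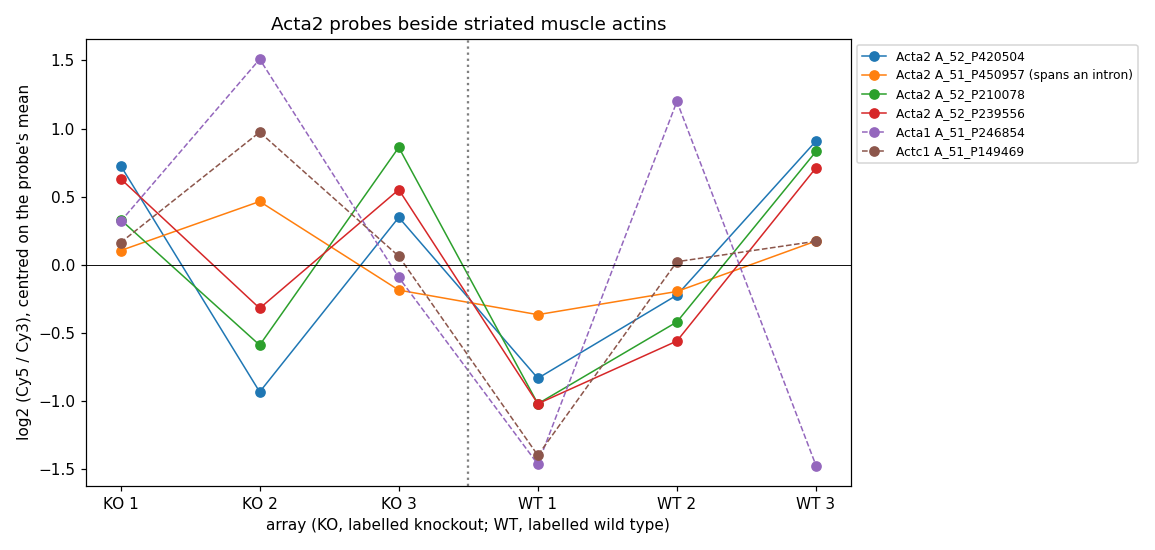
Log2 ratio of the 4 tested Acta2 probes (solid) and of Acta1 and Actc1 (dashed) on each array, centred on each probe's mean over the 6 arrays, with the arrays labelled knockout left of the dotted line. On knockout replicate 2 the intron-spanning Acta2 probe lies above its mean with Acta1 and Actc1, and the other 3 Acta2 probes lie below theirs.

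Actg2 encodes the visceral, or enteric, smooth muscle actin. It read 1.56, 0.72 and 1.48 on the arrays labelled knockout, against 0.76, 0.59 and 1.87 on those labelled wild type. Wild type replicate 3 was the highest array, and knockout replicate 2 lay among the lower wild type arrays. The difference was 0.18 (95% interval -0.72 to 1.08, adjusted p = 0.81), but 0.98 with Cy5 alone after quantile normalization (adjusted p = 0.18) and -0.04 in the deposited log ratio.

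Myh11 encodes the heavy chain of smooth muscle myosin, the motor that pulls on these filaments. It read 6.39, 5.05 and 6.11 in the knockout group, against 5.18, 5.88 and 5.81 in the wild type group. Knockout replicates 1 and 3 were the highest arrays and knockout replicate 2 the lowest, so the wild type values fell between those of the knockout group. The means were 5.85 ± 0.70 on the arrays labelled knockout and 5.62 ± 0.39 on those labelled wild type (SD, n = 3 each), with a difference of 0.23 (95% interval -0.64 to 1.10, adjusted p = 0.75). Background-subtracted Cy5 was 7745, 2901 and 11856 in the knockout group, against 1572, 3309 and 20169 in the wild type group. The Cy3 signal of the common reference was not even at this probe, with 156, 118 and 279 on the arrays labelled knockout and 143, 177 and 524 on those labelled wild type, and it was highest where Cy5 was highest.

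Cnn1 and Tagln encode calponin and transgelin, small proteins that bind actin filaments, and both were lower on knockout replicate 2 than on the other knockout arrays. Cnn1 (chr9:21913058-21913117, plus strand) read 5.31, 3.83 and 5.21 on the arrays labelled knockout, against 3.93, 4.97 and 5.49 on those labelled wild type. Its means were 4.79 ± 0.83 on the knockout arrays and 4.80 ± 0.79 on the wild type arrays (SD, n = 3 each), and the difference was -0.01 (95% interval -1.22 to 1.19, adjusted p = 0.99). Without knockout replicate 2 the Cnn1 difference was 0.46, and without wild type replicate 1 it was -0.44, neither past the test.

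The brightest Tagln probe, A_51_P450527, read 1.44, -0.14 and 1.25 in the knockout group, against -0.33, 0.50 and 1.30 in the wild type group. The other Tagln probe, A_52_P517683, read 1.33, -0.87 and 1.14, against -0.25, 0.52 and 1.89. On both, knockout replicate 2 and wild type replicate 1 were the lowest of their groups. The differences were 0.36 (SE 0.53, adjusted p = 0.72) and -0.19 (SE 0.72, adjusted p = 0.90), so the Tagln probes differed in sign, each within its error. The second of these probes had the widest range within a group among all member probes, 2.20 on the log2 scale.

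Smtn encodes smoothelin, a cytoskeletal protein of contractile smooth muscle, and it was the least variable member. It read -0.18, 0.12 and -0.10 on the arrays labelled knockout, against -0.18, 0.01 and -0.07 on those labelled wild type. All 6 arrays lay within 0.30 of each other, and the difference was 0.03 (95% interval -0.32 to 0.38, adjusted p = 0.94). With Cy5 alone after quantile normalization the Smtn difference was -0.58 (adjusted p = 0.095), with the Cy3 signal of the reference at 1866, 3194 and 2620 in the knockout group, against 4558, 4348 and 4223 in the wild type group.

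Lmod1, Des and Hspb6 followed another order, with knockout replicate 2 the highest of all 6 arrays. Lmod1 encodes leiomodin, which nucleates actin filaments. It read 3.38, 4.09 and 3.33 on the arrays labelled knockout, against 1.72, 3.17 and 3.38 on those labelled wild type, and the low value of wild type replicate 1 stood apart from the other 5. The difference was 0.84 (95% interval -0.22 to 1.90, adjusted p = 0.31), and 0.32 without wild type replicate 1.

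Des encodes desmin, the intermediate filament of muscle cells, and its probe was spotted 10 times on each array. It read 3.91, 5.23 and 3.74 in the knockout group, against 2.23, 4.39 and 3.52 in the wild type group. In each group replicate 2 was the highest. The means were 4.29 ± 0.82 on the arrays labelled knockout and 3.38 ± 1.08 on those labelled wild type (SD, n = 3 each), with a difference of 0.91 (95% interval -0.50 to 2.32, adjusted p = 0.40). Without wild type replicate 1 the difference was 0.34, and without wild type replicate 2 it was 1.41.

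Hspb6 encodes a small heat shock protein, phosphorylated when smooth muscle relaxes, and had the widest difference of the set. It read 2.22, 3.66 and 1.73 on the arrays labelled knockout, against 0.26, 2.20 and 0.65 on those labelled wild type. Each knockout array lay above the wild type array of the same replicate number, while wild type replicate 2 lay above knockout replicate 3. The means were 2.54 ± 1.01 on the knockout arrays and 1.04 ± 1.03 on the wild type arrays (SD, n = 3 each), and the difference of 1.50 (SE 0.64, 95% interval 0.00 to 3.00) missed the threshold in limma (adjusted p = 0.21). When same-numbered arrays were blocked, this difference passed (adjusted p = 0.014). Over the other settings it lay between 0.94, without knockout replicate 2, and 2.08, without wild type replicate 2, and passed in none of them. Background-subtracted Cy5 was 1293, 6284 and 1107 in the knockout group, against 163, 807 and 672 in the wild type group.

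**Figure D3:**
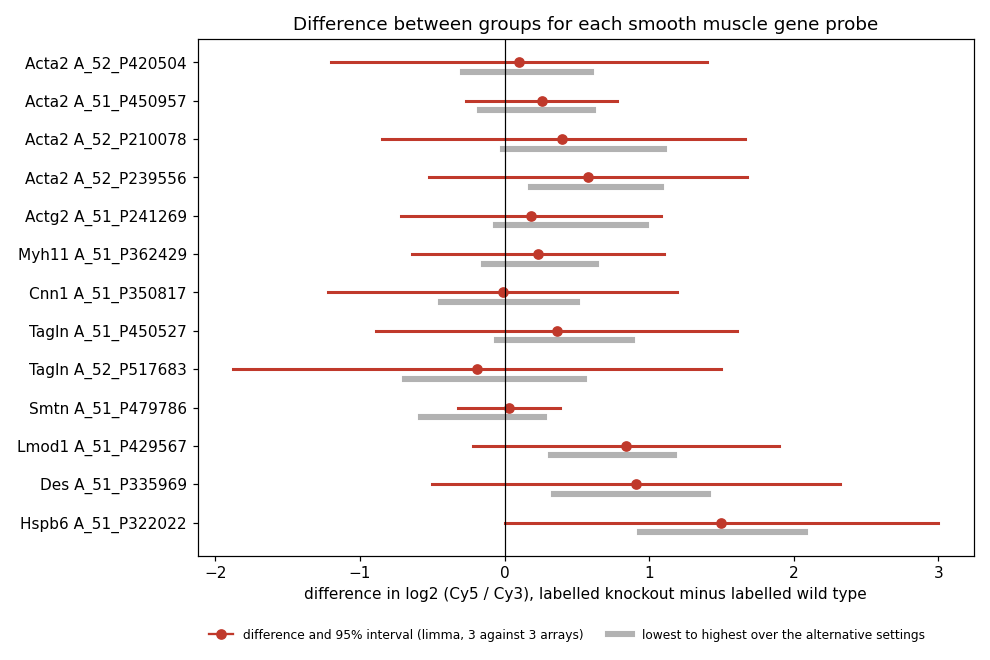
Difference in log2 ratio, arrays labelled knockout minus arrays labelled wild type, for each tested probe (point) with its 95% interval (red line) and the lowest to highest value over the alternative settings (grey bar). The red intervals of 12 of the 13 probes cross 0, and that of Hspb6, farthest to the right at 1.50, begins at 0.00.

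By the mean over its genes, striated muscle RNA was likewise highest on knockout replicate 2. The 31 skeletal muscle genes had a mean log2 ratio, each gene centred on its own mean over the arrays, of 0.12, 1.35 and 0.07 on knockout replicates 1, 2 and 3, against -1.19, 0.90 and -1.26 on wild type replicates 1, 2 and 3. Their summed Cy5 signal ranged from 369586 to 3632244 over the arrays labelled knockout and from 58795 to 714708 over those labelled wild type. Replicate 2 was the highest array of each group, as it was for Des and Hspb6, and the part of striated muscle in those values was not tested. Not every gene followed the mean. Ckm, the muscle creatine kinase, read 5.83, 6.23 and 5.61 in the knockout group, against 4.30, 6.66 and 3.71 in the wild type group. Ckm was thus highest on wild type replicate 2, as was Myh4 (6.82, against 6.34 on knockout replicate 2). The Cy5 signal of both genes was instead highest on knockout replicate 2. Of the 31 skeletal muscle genes 1 passed and was higher on the arrays labelled knockout, Myh2, a fast myosin heavy chain (difference 1.63, adjusted p = 0.04), where 4.84% of all tested genes passed, 2.83% higher and 2.0% lower, and the list's median difference was 1.13. With a replicate block 13 of the 31 genes passed by their brightest probe, beside 7.39% of all tested probes. A share by gene was not computed with the block. Myh2 lost its call without wild type replicate 1 or 2 or without any single knockout array, and with a mean over probes, median centring or the deposited values no skeletal muscle gene passed. Tnnt1 (1.68) and Tnni1 (1.15), slow troponin subunits, had the next smallest p and did not pass, except with a replicate block (adjusted p = 0.042 and 0.039).

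Markers of connective tissue were low on knockout replicate 2, as Acta2, Cnn1 and Tagln were. The 16 fibroblast genes had a mean centred log2 ratio of 0.50, -0.86 and 0.71 on the arrays labelled knockout, against -0.12, -0.84 and 0.61 on those labelled wild type. The brightest Acta2 probe, centred in the same way, gave 0.73, -0.93 and 0.35 against -0.83, -0.22 and 0.90. Replicate 2 was the lowest array of the knockout group in both, but the wild type arrays differed: the fibroblast genes were lowest on replicate 2, and Acta2 on replicate 1. No fibroblast gene of 16 passed (median difference 0.26), and Mfap5 (1.26, adjusted p = 0.32, or 0.015 when replicates are blocked), Fbln1 (-0.30) and Col5a1 (0.45) had the smallest p. None of 8 pericyte genes passed (median 0.20), with Cox4i2 at 0.28, Abcc9, a subunit of the potassium channel of vascular muscle and pericytes, at 1.06, and Notch3 at -0.19. None of 12 endothelial genes passed (median 0.44), although 3 did with a replicate block, beside 7.39% of all tested probes. Robo4 read 4.50, 4.78 and 4.57 in the knockout group, against 3.94, 3.94 and 3.43 in the wild type group (difference 0.84, adjusted p = 0.057), and Tek and Cldn5 differed by 0.56 and 1.06. The groups did not overlap for 5 of the 12 endothelial genes, beside 32.2% of all tested genes. They were higher on the arrays labelled knockout for Robo4, Tek, Cldn5 and Vwf (0.41) and lower for Sox17 (-0.55), the last pair named after their values were seen.

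**Figure D4:**
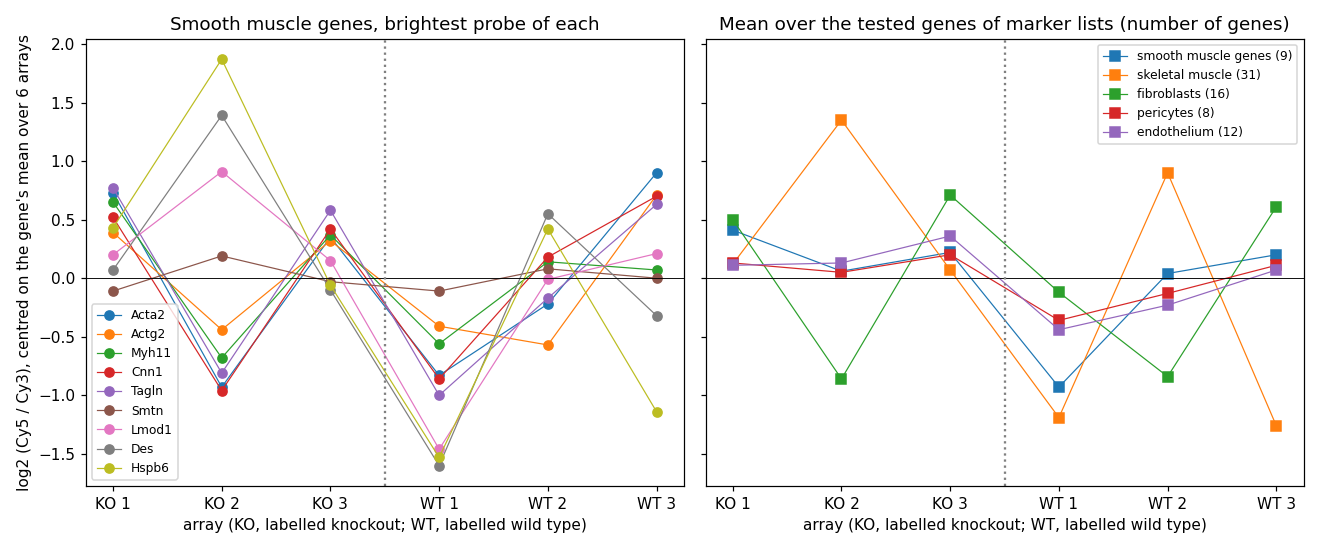
Left, log2 ratio of the brightest probe of each smooth muscle gene, centred on its mean over 6 arrays. Right, the mean of such centred values over the tested genes of 5 marker lists. Arrays labelled knockout lie left of the dotted line. On knockout replicate 2 Hspb6 (1.87), Des (1.39) and Lmod1 (0.91) lie highest with skeletal muscle (1.35), while Cnn1 (-0.96), Acta2 (-0.93) and Tagln (-0.81) lie lowest with fibroblasts (-0.86).

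Other genes of smooth muscle contraction were read alongside. Of 30 partners of contraction and the cytoskeleton 0 passed and the median difference was 0.09. With a replicate block 1 passed, beside 7.39% of all tested probes. Mylk, the myosin light chain kinase, read 2.42, 0.33 and 2.58 in the knockout group, against 1.28, 1.06 and 2.70 in the wild type group. Synpo2, which encodes an actin-binding protein, read 5.02, 3.56 and 4.89 in the knockout group, against 2.20, 2.72 and 4.32 in the wild type group (difference 1.41, adjusted p = 0.22). Cnn3 (-0.71, adjusted p = 0.072), Actn1 (-0.53, adjusted p = 0.087) and Ppp1r12a (-0.42), the last a subunit of myosin phosphatase, had the smallest p and did not pass.

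Of 19 tested regulators of smooth muscle transcription and signalling, 0 were higher and 1 was lower, where 2.83% of all tested genes were higher and 2.0% lower. Bmp4, a secreted ligand of the bone morphogenetic protein family, read -0.85, -1.33 and -0.88 on the arrays labelled knockout, against -0.09, 0.08 and 0.65 on those labelled wild type. It fell by 1.24 (SE 0.24, adjusted p = 0.04), and its call was lost without any single array, with median centring and in the deposited values. Myocd, the myocardin gene, read 2.50, 0.70 and 1.92 against 1.36, 1.70 and 3.21, with knockout replicate 2 the lowest array as for Acta2 and Cnn1 (difference -0.39, adjusted p = 0.74). Srf, its partner, differed by 0.58 (adjusted p = 0.14) and Ptch1, the hedgehog receptor, by -0.50 (adjusted p = 0.12). The list's median difference was 0.07. Barx1, Elk1 and Shh were not tested.

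Of 18 tested genes of excitation and relaxation 0 passed, with a median of 0.27. Ednra, the endothelin receptor of vascular muscle, read 2.76, 2.04 and 2.93 in the knockout group, against 1.88, 1.60 and 1.87 in the wild type group (difference 0.80, adjusted p = 0.12). Ptger3, a prostaglandin E receptor, differed by 1.27 (adjusted p = 0.13, or 0.027 when replicates are blocked), and Adra1d, an alpha-adrenergic receptor, by 0.42. The muscarinic receptor genes Chrm2 and Chrm3 were among 6 genes of this list that were not tested because their signal was too dim.

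Among the remaining cell types, no gene of 4 for interstitial cells of Cajal passed (median 0.04), with Kitl, Etv1 and Ano1 at 0.75, -0.34 and 0.24. Of 8 tested genes of enteric neurons and glia 1 was higher, where 2.83% of all tested genes were. This was Chat, the acetylcholine-synthesizing enzyme, at 5.79, 5.05 and 5.08 against 3.60, 2.74 and 4.13 (difference 1.81, adjusted p = 0.047 in limma). Its call was lost without wild type replicate 1 or 2, without any single knockout array, with median centring, with trended variances and under both other filters on dim probes, and that list's median was 0.33, with Tubb3 at -0.73 (adjusted p = 0.13, or 0.048 with a replicate block) and S100b at 1.27. None of 8 basal epithelial genes passed (median 0.07, with Itgb4, Col17a1 and Krt14 at 0.60, -0.50 and 0.34). None of 5 adipocyte genes passed (median 0.20, with Plin1, Retn and Lep at 0.65, 0.37 and -0.40). These named adipocyte genes were dim. Their highest background-subtracted Cy5 was 78.4 for Plin1 and 62.9 for Retn (knockout replicate 2) and 80.6 for Lep (wild type replicate 2). Fabp4, the brightest gene of that list (Cy5 9403 on knockout replicate 2), differed by 0.20, and Cidec by 0.07. No blood gene of 3 passed (median 2.03, with Alas2, Hbb-bt and Hba-a1 at 1.47, 2.36 and 2.03). With a replicate block 2 of the blood genes passed, Alas2 (adjusted p = 0.034) and Hba-a1 (adjusted p = 0.046), beside 7.39% of all tested probes. The groups did not overlap for any of the 3, beside 32.2% of all tested genes.

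The genes whose pattern over the 6 arrays lay nearest to the average of the 9 members were Cep164, Trub2, Lhpp, 5930430L01Rik and Wdfy1. The measure was the root mean square difference of log2 ratios centred on each gene's mean, and it was 0.08 for Cep164, 0.11 for Trub2, 0.13 for Lhpp and 0.14 for both others among 16844 genes compared. The members' average was 0.41, 0.06 and 0.22 on the arrays labelled knockout, against -0.93, 0.04 and 0.20 on those labelled wild type, so its chief feature was the low value of wild type replicate 1. That average joins opposite orders on knockout replicate 2, and the members lay at 0.36 for Myh11 to 0.97 for Hspb6 from it. The 5 genes were picked as the nearest of 16844, so their smaller distances follow from that choice.

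The sequences upstream of the members' starts were searched for the CArG box, the promoter element named above. The promoter table from RefSeq (build GRCm38.p6) held 7 windows for 6 of the 9 genes, each of 250 bases before and 50 bases after a transcription start. It held none for Tagln, Myh11 and Actg2, and sequence outside the windows was not searched. No member window held the CArG box with an unbroken A/T core, a form present in 1.63% of the 32851 windows of the table. With at most 1 base of the core being G or C, the element was found in the Acta2 window and in 1 of the 2 Hspb6 windows. These were 2 of the 7 member windows, beside 9.98% of all windows. The motif is its own reverse complement, so both strands were covered. In the Acta2 window the matches began 84 and 34 bases before the start, at positions -84 and -34. In the Hspb6 window that held a match, it began at position -247. The 250 upstream bases are shown 5′ to 3′ on the strand of the gene, with matches in capitals, for Acta2 at chr19:34255374-34255623 (minus strand) and for Hspb6 at chr7:30553051-30553300 (plus strand), both on GRCm38.p6. A match describes these letters and is no evidence of binding.
Acta2: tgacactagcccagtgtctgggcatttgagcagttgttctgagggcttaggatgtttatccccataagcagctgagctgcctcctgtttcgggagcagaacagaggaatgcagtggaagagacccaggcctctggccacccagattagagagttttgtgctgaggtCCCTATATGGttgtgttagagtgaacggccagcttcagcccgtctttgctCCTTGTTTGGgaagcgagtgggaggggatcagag
Hspb6: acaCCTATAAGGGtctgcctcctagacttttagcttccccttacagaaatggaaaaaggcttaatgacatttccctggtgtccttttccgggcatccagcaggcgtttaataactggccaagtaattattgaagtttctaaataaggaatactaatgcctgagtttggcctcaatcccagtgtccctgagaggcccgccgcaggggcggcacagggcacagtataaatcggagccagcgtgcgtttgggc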

How the data were processed

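The scanner files deposited by the authors hold linear intensity values from array design 014868, with probe positions on mm9. Their headers give Agilent Feature Extraction version 10.7.3.1, while version 9.1 appears in the submitters' processing notes. A log10 ratio of Cy5 over Cy3 was deposited in the same files, and the deposited matrix of log2 values correlated with it at -1.00 on every array, so its sign was turned for use. In R 4.3.3 with limma 3.58.1, intensity was corrected with normexp (offset 50), normalized by loess within arrays, and spots of a probe were averaged without control spots and outlier flags. The difference was fitted with lmFit and eBayes over 30505 probes and 6 arrays, two-sided, with Benjamini-Hochberg adjustment. A gene in a list was represented by its brightest tested probe. The share passing with a replicate block was computed over all tested probes only, so list counts of genes stand beside an unlike unit there. Per-array median Cy5 signal was 97.51 to 132.6 on the arrays labelled knockout and 55.95 to 158.8 on those labelled wild type. Deviations from group means of equal replicate numbers correlated at 0.14, 0.49 and 0.32, each over 0.1. The main fit left the arrays unpaired, and the numbers of the titles served as a block in an alternative only. Unlike numbers correlated at -0.47 to 0.16, and the highest of these, knockout replicate 3 with wild type replicate 1, exceeded the lowest of the pairs. Arrays of equal number also share a slide position. The members, lists and naming rule (all members, the smallest p in each list, Acta1, Ckm, Pax9 and the 5 genes nearest in pattern) were chosen with earlier results of these data known. Synpo2, Mylk, Myocd, Vwf, Sox17, Actc1, Actg1, Actb and Myh4 were named after their values were seen. Alternatives covered the source of values, normalization, Cy5 alone, filters, variance models, a replicate block, probe averaging and leaving out each array. The procedure was also run on simulated arrays with independent noise, a test that could not cover effects of slide, scan or replicate number.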

Additional observations from a re-analysis of the deposited data

How the results depend on the processing

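The count of member probes past the threshold was 0 under 16 of 17 alternatives and 1 with a replicate block (Hspb6), which changed no other member's call. Lmod1, Des, Hspb6 and the Acta2 probe A_52_P239556 kept a positive difference throughout, while 9 other probes turned in sign, each without passing. In the deposited log ratio and in the matrix values the differences were -0.06 for Acta2 A_52_P420504, -0.04 for Actg2 and 0.05 for Tagln A_52_P517683. With median centring they were 0.38 for Cnn1 and 0.11 for that Tagln probe, and with array weights 0.50 and 0.55. With Cy5 alone after quantile or Aquantile normalization they were -0.17 and -0.16 for Acta2 A_51_P450957, 0.07 and 0.05 for Cnn1, and -0.58 and -0.55 for Smtn, with Myh11 at -0.14 after quantile normalization. Leaving out single arrays gave -0.29 to 0.59 for Acta2 A_52_P420504, -0.01 to 0.92 for Acta2 A_52_P210078, -0.06 to 0.58 for Actg2, -0.44 to 0.46 for Cnn1, -0.04 to 0.63 for Myh11, -0.06 to 0.09 for Smtn, -0.05 to 0.85 for Tagln A_51_P450527 and -0.67 to 0.51 for Tagln A_52_P517683. The causes were not tested. Over all probes 1274 passed, and the counts were 727 with the deposited log ratio, 714 with the matrix values, 139 with median centring, 8204 and 8909 with Cy5 alone (quantile, Aquantile), 4903 with array weights, 2254 with a replicate block, 699 with signal required on all 6 arrays, where fewer probes were tested, and 38 to 1111 without single arrays. Of the gene lists, 1 regulator, 1 skeletal muscle gene and 1 enteric gene passed, beside 4.84% of all tested genes. With Cy5 alone after quantile normalization the counts were 4 for contraction partners, regulators and basal epithelium, 2 for skeletal muscle and endothelium, and 1 for excitation, pericytes, Cajal cells, adipocytes and blood. After Aquantile they were 5 for contraction partners, 4 for regulators and basal epithelium, 3 for endothelium and enteric genes, 2 for skeletal muscle and blood, and 1 for excitation, pericytes, fibroblasts, Cajal cells and adipocytes. Array weights gave 4 for endothelium, 3 for contraction partners and excitation, 2 for skeletal muscle, enteric genes and blood, and 1 for Cajal cells, basal epithelium and adipocytes. A replicate block gave 13 for skeletal muscle, 3 for endothelium, 2 for regulators, enteric genes and blood, and 1 for contraction partners, excitation and fibroblasts. The deposited log ratio and the matrix gave 2 for excitation, 1 for endothelium and 0 for skeletal muscle and regulators. Median centring gave 0 for every list. Averaging a gene's probes gave 1 for excitation, endothelium and adipocytes and 0 for skeletal muscle. Enteric genes fell to 0 with trended variances and both other filters, and no filter gave 1 for adipocytes. Leaving out single arrays gave 0 to 1 for skeletal muscle, enteric genes, excitation, Cajal cells and blood, and 0 for regulators.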
